A study of Mus musculus with 24 samples.

Results

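Spp1, Arg1 and Lgals3, 3 genes of the repair programme of macrophages, were followed library by library in the heart and skeletal muscle of mice with pancreatic tumours. They are 3 of the 14537 genes in the deposited count table of each tissue, found there by symbol, and they were chosen by name because earlier results of these data had shown them to differ between hearts. Their own levels and fold changes are therefore descriptions without a test. Tests are given for the genes around them, such as receptors, the arginine pathway, other galectins, regulators and markers of macrophages, from lists drawn up with those results known. The filter on low counts kept 3 of 3 genes in heart and 2 of 3 in muscle, where Arg1 was too low to be fitted.

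RNA sequencing compared 3 groups of male C57BL/6J mice, with 4 libraries per group and tissue, 24 libraries from 16 animals in all, 8 of which gave both tissues. KPC+GnP mice carried cells of the pancreatic cancer line KPC32908 in the pancreas and received gemcitabine (a nucleoside analogue that blocks DNA synthesis) plus nab-paclitaxel, an albumin-bound form of the microtubule drug paclitaxel. KPC mice carried the same cells and were given vehicle, and control mice had sham surgery and, per the labels, no treatment. The series was made to study cachexia, the wasting of muscle and fat in cancer, and what this chemotherapy does to it. A comparison of KPC with control mice covers the tumour together with any effect of the vehicle. All tumours came from 1 cell line, that line's name also stands in the labels of control samples, and no age of the mice is stated in the sources used here.

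Macrophages that clear and rebuild injured tissue secrete or retain a characteristic set of proteins. Spp1 encodes osteopontin, a secreted phosphoprotein that binds integrins and CD44 and is also made by bone cells and some epithelia. Arg1 encodes arginase 1, which turns arginine into ornithine and urea, competes with nitric oxide synthase for arginine and feeds polyamine and proline synthesis; it is also a urea cycle enzyme of hepatocytes. Lgals3 encodes galectin-3, or Mac-2, a lectin that binds beta-galactosides on glycoproteins and is made by macrophages, fibroblasts and epithelia. In injured heart and muscle these genes are known from macrophages recruited from blood monocytes more than from resident ones.

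Values are CPM, counts scaled to a common library total (the usual per-million unit, with trimmed-mean scaling within each tissue), and levels of different genes are compared only per length, as the authors' FPKM. Depth was 11020931 to 20969551 counts per heart library and 18285396 to 27382432 per muscle library. KPC muscles had 26031716 to 27382432 counts and scaling factors of 0.850 to 0.938. The other muscles had factors of 0.994 to 1.11 and, apart from control muscle 4 (26209388), 18285396 to 21379175 counts. In muscle, depth and scaling factors thus differed between KPC and the other groups, and the part of depth in the muscle results was not tested. Cardiomyocyte markers summed to 32490 to 73510 CPM in hearts and 71.6 to 615 CPM in muscles, and skeletal fibre markers to 117100 to 195000 CPM in muscles and 849 to 2856 CPM in hearts, so every library carried the markers of its labelled tissue. 1 library stood apart before any comparison, the heart of KPC mouse 144 (KPC heart 2). It held 3561 CPM of macrophage core markers, against 578 to 1568 CPM in the other KPC hearts, and 297.5 CPM of lymphocyte markers, against 2.61 to 11.7 CPM in them. Results that rest on it are given with and without it. Nothing in the labels says whether libraries of a group came from separate litters or days, so p-values measure the spread between these samples. In whole tissue, more macrophages and more RNA of a gene per macrophage cannot be told apart.

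The 3 genes lie on different chromosomes of GRCm38 in the GENCODE vM21 annotation, each protein coding. Spp1 (ENSMUSG00000029304.14) spans chr5:104435118-104441050 on the plus strand with 7 transcripts, Arg1 (ENSMUSG00000019987.9) chr10:24915221-24927484 on the minus strand with 3, and Lgals3 (ENSMUSG00000050335.17) chr14:47367751-47386160 on the plus strand with 6. The 250 bases before the start are shown for the 2 genes with an entry in the RefSeq promoter table (GRCm38.p6), because these genes behaved differently from library to library. Capitals mark GAGGAA, a core of the site of PU.1, the transcription factor of macrophage identity. Spp1 is at chr5:104434861-104435110 and Lgals3 at chr14:47373610-47373859, both on the plus strand.
Spp1 promoter: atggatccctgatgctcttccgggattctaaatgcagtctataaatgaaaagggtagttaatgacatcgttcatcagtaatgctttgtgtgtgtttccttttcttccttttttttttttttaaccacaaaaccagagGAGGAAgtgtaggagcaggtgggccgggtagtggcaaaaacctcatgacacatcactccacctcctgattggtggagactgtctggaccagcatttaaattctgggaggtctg
Lgals3 promoter: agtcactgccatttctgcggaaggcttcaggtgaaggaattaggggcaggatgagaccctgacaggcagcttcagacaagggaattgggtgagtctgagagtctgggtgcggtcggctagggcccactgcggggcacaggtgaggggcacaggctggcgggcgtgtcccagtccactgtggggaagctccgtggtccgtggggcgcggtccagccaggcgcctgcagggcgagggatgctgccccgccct
5 motifs were searched on both strands: GAGGAA, the C/EBP half-site pair TTGCNNAA, the STAT site TTCNNNGAA, the cyclic AMP response element TGACGTCA and the AP-1 site TGANTCA. The printed Spp1 window held GAGGAA at bases 113 to 108 before the start and no match to the others, and the Lgals3 window held no match to any of the 5. The table lists another start of Spp1 too, whose window at chr5:104435942-104436191 (35.6% G and C) held 1 match, TTGCAGAA of the C/EBP pattern, at bases 156 to 149 before that start. GAGGAA stood in 23.3% of all 32851 promoters of the same length, TTGCNNAA in 9.56%, TTCNNNGAA in 7.02%, TGACGTCA in 1.55% and TGANTCA in 6.75%. The Spp1 window printed above is 43.6% and the Lgals3 window 66.0% G and C. A match is a string of letters and was not tested as a binding site.

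In hearts Spp1 spanned the widest range of levels of the 3 genes together with Arg1, and its highest values were in KPC mice. Spp1 had 2.80, 0.327, 13.0 and 0.983 CPM in the 4 KPC+GnP hearts, 9.83, 356, 34.1 and 1.54 CPM in the 4 KPC hearts and 0.952, 0.419, 0.218 and 0.615 CPM in the 4 control hearts. All 4 KPC hearts lay above all 4 controls, while KPC+GnP hearts overlapped both groups. KPC heart 2 alone carried 6660 counts of Spp1, and there the gene stood at place 310 of 14537 by the authors' FPKM, at 166 FPKM. KPC heart 4, with 1.54 CPM, stood next to the highest control, with 0.952 CPM.

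**Figure D1:**
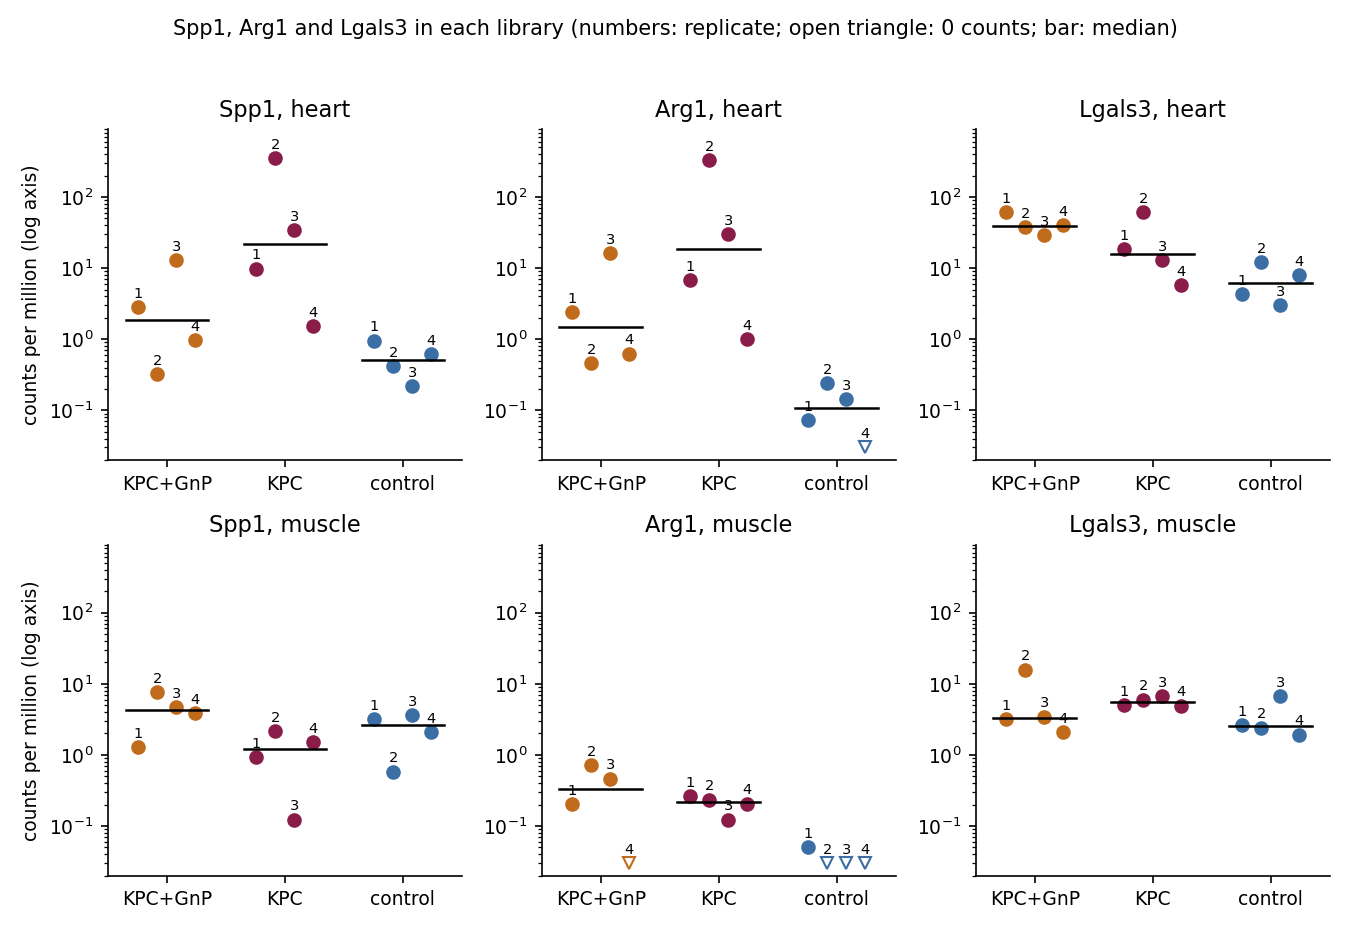
CPM on a log axis of Spp1, Arg1 and Lgals3 in each library, heart above and muscle below, with KPC+GnP, KPC and control from left to right, bars at the group medians and open triangles for libraries with 0 counts. KPC heart 2 reaches 356 CPM of Spp1 and 329 CPM of Arg1, the 4 KPC+GnP hearts sit between 29.0 and 61.4 CPM of Lgals3, and muscle values of Arg1 stay under 1 CPM.

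Arg1 followed the same libraries. It had 2.39, 0.457, 16.4 and 0.625 CPM in KPC+GnP hearts, 6.80, 329, 29.8 and 1.00 CPM in KPC hearts and 0.0732, 0.239, 0.145 and 0 CPM in control hearts. Both tumour-bearing groups lay wholly above the controls, in which Arg1 rested on 1, 4, 2 and 0 counts. The 0 of control heart 4 allows a level of up to 0.168 CPM at 3 counts, a limit for counting error only. KPC heart 2 held 6142 counts of Arg1 and ranked the gene at place 300 by FPKM, at 172 FPKM.

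Lgals3 did not share that pattern. It had 61.4, 37.7, 29.0 and 40.3 CPM in KPC+GnP hearts, 18.4, 61.8, 12.9 and 5.74 CPM in KPC hearts and 4.32, 12.02, 3.05 and 7.89 CPM in control hearts. Every KPC+GnP heart lay above every control heart, and above 3 of the 4 KPC hearts. KPC hearts overlapped the controls, with KPC heart 4 below control hearts 2 and 4. By median FPKM, Lgals3 stood at 21.5 in KPC+GnP, 8.79 in KPC and 3.41 in control hearts, against 0.945, 10.3 and 0.303 for Spp1 and 0.858, 9.68 and 0.128 for Arg1. The order of the genes by FPKM thus put Lgals3 first in KPC+GnP and control hearts. In KPC hearts the 3 medians lay within the spread of each gene. The lowest FPKM are set too high by a constant that the authors added before taking logs, since an Arg1 count of 0 is listed at 0.0706 FPKM.

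Relative to controls, KPC hearts carried far more Spp1 and Arg1 and moderately more Lgals3. Spp1 averaged 100.5 ± 171 CPM in KPC and 0.551 ± 0.313 CPM in control hearts (SD, n = 4 each), a log2 fold change of 7.50 (SE 1.75). Arg1 averaged 91.6 ± 159 CPM in KPC and 0.114 ± 0.102 CPM in control hearts, a log2 fold change of 9.57 (SE 2.21), which depends on the 7 counts of the control group. In pooled counts, Arg1 was 862-fold higher in KPC hearts (95% Clopper-Pearson interval 418 to 2140, for counting error only), and by group medians Spp1 was 42.5-fold and Arg1 168-fold higher. Lgals3 averaged 24.7 ± 25.3 CPM in KPC and 6.82 ± 4.03 CPM in control hearts, a log2 fold change of 1.85 (SE 0.64), and 2.56-fold by medians. Without KPC heart 2 the log2 fold changes were 4.78 for Spp1, 6.71 for Arg1 and 0.88 for Lgals3. Of the 3 genes, 2 passed the threshold for higher genes (edgeR adjusted p of 0.05 over 13846 genes), against 4.95% of all genes for higher and 4.38% for lower, and 2 had groups that did not overlap, against 14.4% of all genes. Nothing is read from these counts, since the genes were chosen on this contrast.

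Between KPC+GnP and KPC hearts, which share the KPC libraries with the comparison above, Spp1 and Arg1 had lower means and Lgals3 a higher one. Spp1 averaged 4.27 ± 5.90 CPM in KPC+GnP and 100.5 ± 171 CPM in KPC hearts, 23.1-fold lower in the fit (log2 fold change -4.53, SE 1.42), and Arg1 averaged 4.97 ± 7.68 and 91.6 ± 159 CPM in these groups, 18.1-fold lower (log2 fold change -4.18, SE 1.48). Lgals3 averaged 42.1 ± 13.7 CPM in KPC+GnP and 24.7 ± 25.3 CPM in KPC hearts (log2 fold change 0.76, SE 0.60). None of the 3 passed the threshold, against 1.13% of genes higher and 0.412% lower, and all 3 overlapped, against 8.10% of genes that did not. Without KPC heart 2 the log2 fold changes were -1.81 for Spp1, -1.31 for Arg1 and 1.75 for Lgals3.

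Against controls, KPC+GnP hearts were higher in Lgals3 by a log2 fold change of 2.62 (SE 0.65), or 6.39-fold by medians. Markers of fat differed between the same hearts. The 6 white adipocyte markers summed to 2521, 1588, 2460 and 509.9 CPM in KPC+GnP hearts, 931 to 1371 CPM in KPC hearts and 553 to 989 CPM in control hearts. In KPC+GnP against control hearts 2 of 6 rose (median log2 fold change 7.04), where 0.816% of all genes rose. Plin1, the lipid droplet coat protein, had 143.5, 74.2, 106.5 and 1.16 CPM in KPC+GnP hearts and 0 to 0.717 CPM in control hearts (log2 difference 7.55, SE 1.46, edgeR adjusted p = 0.0355). Ucp1, the uncoupling protein of brown fat, had 331, 226, 383 and 0 CPM in KPC+GnP hearts and 0 CPM in every control heart. Of 4 brown adipocyte markers 2 rose, Ucp1 and Cidea, beside the same share of all genes. Each of these calls was lost without any 1 control heart and without KPC+GnP heart 1, 2 or 3, and that of Ucp1 also without KPC heart 1 or 3. KPC+GnP heart 4 had 0 CPM of Ucp1, 1.16 CPM of Plin1 and 40.3 CPM of Lgals3. The part of fat in the Lgals3 of the KPC+GnP hearts was not tested.

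In the same comparison of KPC+GnP with control hearts, for Spp1 the log2 fold change was 2.97 (SE 1.71) and for Arg1 5.39 (SE 2.32), and without KPC+GnP heart 3, the highest of its group in both, it was 1.38 and 3.36. None of the 3 passed the threshold here, against 0.816% of genes higher and 0.412% lower, while 2 of 3, Arg1 and Lgals3, did not overlap, against 15.9% of genes. These values share control libraries with the first comparison and KPC+GnP libraries with the second.

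Spp1 and Arg1 varied together from heart to heart at nearly equal levels per length. Over the 12 hearts the Pearson correlation of their log2 CPM was 0.966 and Spearman's rho 0.888, and r was 0.903 without the 2 hearts farthest from the median of Spp1 and 0.951 after subtraction of group means. The ratio of Arg1 to Spp1 in FPKM was 0.964, 1.44, 1.42 and 0.764 in KPC+GnP hearts and 0.782, 1.04, 0.982 and 0.763 in KPC hearts, while Spp1 itself ran between 0.327 and 356 CPM in these 8 hearts. In control hearts, where both rest on few counts, it was between 0.204 and 0.891, the lowest in control heart 4 with 0 counts of Arg1. Lgals3 was less alike, with r = 0.482 to Spp1 and 0.573 to Arg1. All 12 points come from separate hearts, but they share depth and tissue composition, and these correlations are descriptions of genes chosen together.

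**Figure D2:**
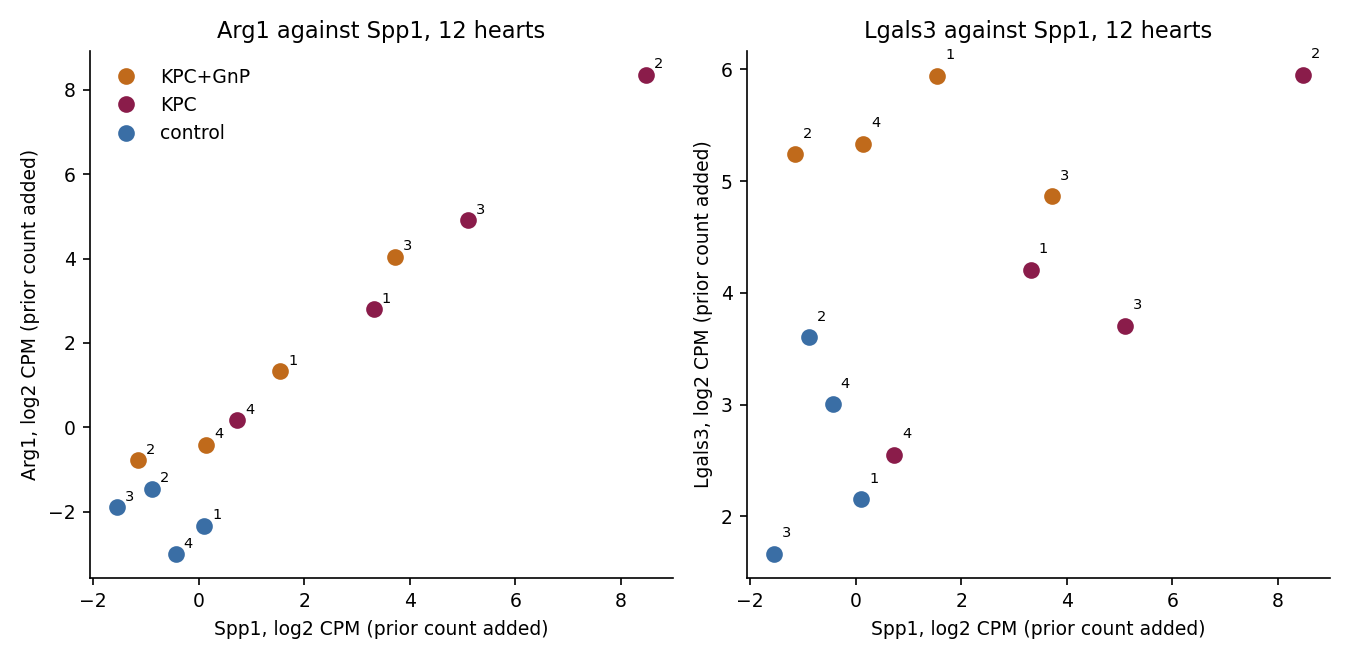
Log2 CPM of Arg1 (left) and Lgals3 (right) against log2 CPM of Spp1 in the 12 hearts, coloured by group and numbered by replicate. Arg1 follows Spp1 along a line (r = 0.966), with KPC heart 2 at the top, whereas the KPC+GnP hearts hold Lgals3 high at any level of Spp1 (r = 0.482).

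Within groups of hearts, Spp1 and Arg1 varied more than most genes. Both were chosen because they differed between hearts, so these ranks are descriptions only. Among KPC hearts the SD of log2 CPM was 3.25 for Spp1, exceeded by 26 of 13846 genes, and 3.46 for Arg1, exceeded by 21, against a median SD of 0.323 over all genes. Among KPC+GnP hearts it was 2.08 for Spp1, exceeded by 63 genes, and 2.20 for Arg1, exceeded by 45, against a median of 0.221. Lgals3 had an SD of 1.41 among KPC hearts but 0.447 among KPC+GnP hearts, where 2608 genes varied more. Among KPC+GnP hearts Lgals3 thus varied less than Spp1 and Arg1, though more than the median gene. In muscle, of 12760 genes 178 had a larger SD than Spp1 in KPC+GnP, 122 in KPC and 66 in control mice. For Lgals3 these were 73, 9272 and 319 genes.

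The genes whose levels over the 12 hearts were most like Spp1 were Arg1 (r = 0.966), AA467197 (0.959), Chil3 (0.958) and Taf1d (0.955). Those most like Arg1 were Clec4e, the macrophage C-type lectin Mincle (0.973), Chil3 (0.968), Plaur, the urokinase receptor (0.966), Spp1 (0.966) and AB124611 (0.963). Chil3, a chitinase-like protein of alternatively activated macrophages, had 7.11, 0.849, 14.9 and 1.88 CPM in KPC+GnP hearts, 11.5, 236, 58.8 and 0.935 CPM in KPC hearts and 0.220, 0.717, 0.0725 and 0.559 CPM in control hearts. Its reads may be shared with a near-identical neighbour gene, so its level is uncertain. Clec4e reached 19.4 CPM in KPC heart 2 and 4.76 CPM in KPC heart 3, against 0.0559 to 0.359 CPM in controls, the same pair of hearts that led Spp1 and Arg1.

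Genes most like Lgals3 were others. They were Dtnb, a dystrobrevin (0.975), Hmgn3, a nucleosome-binding protein (0.963), Fgfr1, a fibroblast growth factor receptor (0.96), Csrp2, a LIM-domain protein of smooth muscle (0.949), and Slc38a1, a glutamine transporter (0.947). Csrp2 had 91.8, 51.7, 54.8 and 46.7 CPM in KPC+GnP hearts, 36.4, 48.8, 16.8 and 12.7 CPM in KPC hearts and 13.4, 23.9, 11.6 and 18.6 CPM in control hearts. As for Lgals3, KPC hearts 1 and 2 stood above KPC hearts 3 and 4, and control hearts 2 and 4 above control hearts 1 and 3. Myl4, the atrial light chain, chosen here after its values were seen, separated those controls too. It had 3565, 1372, 274 and 2370 CPM in KPC+GnP hearts, 169, 1.66, 2.38 and 1.67 CPM in KPC hearts and 1.61, 535, 1.81 and 617 CPM in control hearts. KPC heart 2, with the highest Lgals3 of all at 61.8 CPM, had 1.66 CPM of Myl4. Other atrial genes are not shown here, and a single gene picked for its values cannot stand for atrial tissue. The part of atrial tissue in the Lgals3 values was not tested.

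Markers of macrophages moved with Spp1 and Arg1. The 20 macrophage core markers, all detected, summed to 932, 672, 976 and 580 CPM in KPC+GnP hearts, 1568, 3561, 1063 and 578 CPM in KPC hearts and 463, 785, 451 and 510 CPM in control hearts. The genes were set against that sum in CPM, not per length, so the percentages are read between libraries only. Spp1 equalled 0.300, 0.0486, 1.33 and 0.169% of the sum in KPC+GnP hearts, 0.627, 10, 3.21 and 0.266% in KPC hearts and 0.0483 to 0.205% in control hearts. KPC heart 2 had 3561 CPM of the markers against 1568 CPM in the next heart, and 356 CPM of Spp1 against 34.1 CPM in the next, so Spp1 differed by more than the summed markers did. Lgals3 equalled 6.59, 5.61, 2.97 and 6.95% of the sum in KPC+GnP hearts, 1.17, 1.74, 1.22 and 0.994% in KPC hearts and 0.676 to 1.55% in control hearts. Every KPC+GnP heart thus had more Lgals3 per macrophage marker than every KPC and every control heart. Lgals3 is also made by other cells, and how much of it came from macrophages was not tested.

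**Figure D3:**
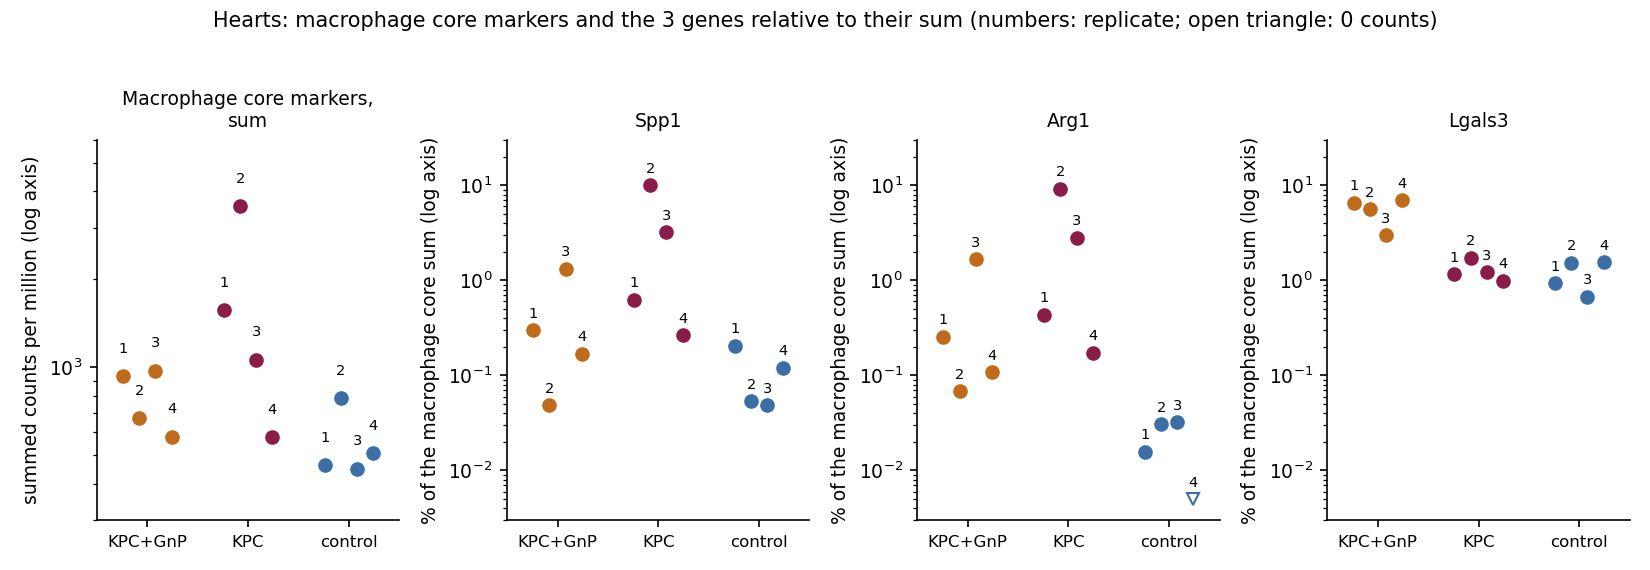
Summed CPM of 20 macrophage core markers in each heart (left panel, log axis) and Spp1, Arg1 and Lgals3 as a percentage of that sum (log axis), numbered by replicate with an open triangle for 0 counts, with KPC+GnP, KPC and control from left to right. KPC heart 2 stands at 10% for Spp1 and 9.23% for Arg1, and the 4 KPC+GnP hearts between 2.97 and 6.95% for Lgals3, above all other hearts.

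Other cell types differed between the same libraries. Neutrophil markers, of which 8 of 12 could be tested, summed to 36.6, 9.80, 28.1 and 10.5 CPM in KPC+GnP hearts, 30.01, 307, 243 and 23.1 CPM in KPC hearts and 5.22 to 15.9 CPM in controls. KPC hearts 2 and 3, the highest in Spp1 and Arg1, were also the highest in these markers, with the part of neutrophils not tested. Epithelial markers, which tumour cells could carry, summed to 40.9 to 361 CPM in KPC+GnP, 12.5 to 272 CPM in KPC and 23.2 to 114 CPM in control hearts, and Lgals3 and Spp1 can be made by epithelium; that part was not tested. Markers of hepatocytes, which also make Arg1, were measured for 5 of 8 and summed to 354, 159, 439 and 14.8 CPM in KPC+GnP hearts, 14.3, 233, 5.23 and 3.41 CPM in KPC hearts and 1.17 to 11.02 CPM in control hearts. KPC heart 2 and KPC+GnP heart 3, each the highest of its group in Arg1, were thus the highest of their groups in this sum as well, and the part of hepatocytes was not tested. Within the list, Alb, the albumin gene, chosen after its values were seen, had 93.4 CPM in KPC+GnP heart 3, against 0.311 to 3.29 CPM in the other hearts. The sums of KPC heart 2 and of KPC+GnP hearts 1 and 2 thus came mostly from other genes of the list, which are not shown singly here. From Alb alone nothing is read about hepatocytes in these hearts. Of 8 osteoblast and cartilage markers 3 were measured, and their sum was 31.3 CPM in KPC heart 2, against 48.3 to 75.9 CPM in controls.

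Among the genes around the 3, macrophage genes rose in KPC hearts. Of 20 macrophage core markers 12 rose and 0 fell, where 4.95% of all genes rose and 4.38% fell, with a median log2 fold change of 1.56 against 0.02 over all genes. Fcgr3, an activating Fc receptor, averaged 78.6 ± 58.2 CPM in KPC and 17.97 ± 2.99 CPM in control hearts (log2 difference 2.13, SE 0.42, edgeR adjusted p = 0.0184), and Lyve1, a marker of resident cardiac macrophages and lymphatics, rose by 1.84 (SE 0.41, edgeR adjusted p = 0.0251). Cd163, the haptoglobin-haemoglobin receptor, rose by 1.25 (SE 0.29, edgeR adjusted p = 0.0288). The count of 12 changed with single libraries. It was 6, 1, 3 and 16 without KPC heart 1, 2, 3 or 4, 0, 6, 0 and 0 without control heart 1, 2, 3 or 4, and 7 to 11 without 1 KPC+GnP heart. The number of all genes called changed from fit to fit as well, over a range given below with the processing. Counts of this and the other heart lists with 1 heart left out are therefore not read as particular to a list. Without KPC heart 2, Lyve1 and Cd163 no longer passed (edgeR adjusted p = 0.0569 each) and Fcgr3 did (1.54, edgeR adjusted p = 0.0218). All 3 were lost without control heart 1, 3 or 4, and Lyve1 and Cd163 also without KPC heart 3. Of 38 genes named here as called in KPC hearts against controls, 4 (Il4ra, Itga9, Itgb6 and Cxcl9) passed in every 1 of 12 fits that left out a library.

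Of 17 lipid-associated and repair macrophage genes tested, leaving out the 3 themselves, 5 rose and 0 fell in KPC hearts, with a median log2 fold change of 0.76. Hmox1, which degrades haem, averaged 43.9 ± 36.7 CPM in KPC and 7.94 ± 2.07 CPM in control hearts (log2 fold change 2.46, SE 0.47, edgeR adjusted p = 0.0165). Mmp12, the macrophage elastase, averaged 3.85 ± 0.987 CPM in KPC and 0.734 ± 0.420 CPM in control hearts (2.40, SE 0.47, edgeR adjusted p = 0.0179), and Cd63, a lysosomal tetraspanin, rose by 0.69 (SE 0.14, edgeR adjusted p = 0.0179). Hmox1 was lost without control heart 1 or 3, Mmp12 without control heart 3 or 4 and Cd63 without control heart 1, 3 or 4 or KPC heart 3. Trem2, the lipid-sensing receptor of this programme, did not pass (log2 difference 2.17, SE 0.65, edgeR adjusted p = 0.0544), nor did Gpnmb, a glycoprotein of the same cells (1.32, SE 0.40, edgeR adjusted p = 0.0548). Trem2 stood at 14.1, 13.4, 6.82 and 0.735 CPM in the 4 KPC hearts, so KPC heart 1 was as high in it as KPC heart 2 although it had 9.83 CPM of Spp1 against 356. The count of 5 was 2 without KPC heart 3, 11 without KPC heart 4, 1, 0 and 1 without control heart 1, 3 or 4, and 4 or 5 without any other heart.

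Genes of alternative activation and regulators of Arg1 rose as well. Of 13 alternative activation genes 6 rose and 0 fell in KPC hearts (median log2 fold change 1.67), and of 10 Arg1 regulators 5 rose and 0 fell (0.66). Il4ra, the interleukin-4 receptor chain that drives Arg1 in mouse macrophages, stands in both lists. It averaged 86.8 ± 31.2 CPM in KPC and 19.5 ± 0.762 CPM in control hearts (log2 fold change 2.16, SE 0.22, edgeR adjusted p = 0.00159). This call held without any 1 library. Cebpb, the C/EBP factor that acts on the mouse Arg1 enhancer, had 35.1, 41.1, 49.5 and 35.1 CPM in KPC+GnP hearts, 39.6, 115, 46.7 and 36.4 CPM in KPC hearts and 17.9, 13.2, 17.0 and 22.4 CPM in control hearts. It rose in KPC hearts by 1.75 (SE 0.34, edgeR adjusted p = 0.0169) and without KPC heart 2 by 1.24 (edgeR adjusted p = 0.00670), but did not pass without control heart 1 or 3. Stat3 rose by 0.69 (SE 0.12, edgeR adjusted p = 0.0116, lost without control heart 3) and Klf4 by 0.98 (SE 0.18, edgeR adjusted p = 0.0156, lost without control heart 1, 3 or 4). Chil3 rose by 7.51 (SE 1.62, edgeR adjusted p = 0.0240), and Mrc1, the mannose receptor, by 1.43 (SE 0.36, edgeR adjusted p = 0.0357), with Mrc1 not passing without KPC heart 2 (1.02, edgeR adjusted p = 0.0795), 1 or 3, control heart 1, 3 or 4 or KPC+GnP heart 2, and Chil3 not without KPC heart 3 or any 1 control. The count of alternative activation genes was 2, 1 and 1 without control heart 1, 3 or 4, 9 without KPC heart 4, and 4 to 7 without any other heart, and that of regulators 2, 1 and 3 without control heart 1, 3 or 4 and 4 or 5 otherwise.

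Receptors of osteopontin did not move one way. Of 10 Spp1 receptor genes 1 rose and 2 fell in KPC hearts, with a median log2 fold change of -0.04. Itgb3, the beta3 integrin chain, had 16.0, 12.7, 14.3 and 15.8 CPM in KPC+GnP hearts, 38.2, 57.5, 41.7 and 5.61 CPM in KPC hearts and 4.32, 12.7, 4.42 and 8.56 CPM in control hearts. It rose in KPC hearts by 2.24 (SE 0.55, edgeR adjusted p = 0.0330), and did not pass without KPC heart 2 (1.94, edgeR adjusted p = 0.0771) or 3, or without control heart 1, 3 or 4. Itga9 fell by 1.24 (SE 0.16, edgeR adjusted p = 0.00294) and Itgb6 by 2.43 (SE 0.32, edgeR adjusted p = 0.00340), both passing without any 1 library. Cd44, the hyaluronan and osteopontin receptor, had 27.4, 171, 31.8 and 13.9 CPM in KPC hearts and 14.7 to 22.1 CPM in control hearts, with overlapping groups (log2 difference 1.77, SE 0.61, edgeR adjusted p = 0.0821). Itgav, the chain that pairs with beta3, averaged 38.4 ± 14.2 CPM in KPC and 35.6 ± 8.71 CPM in control hearts (0.11, SE 0.27, edgeR adjusted p = 0.803).

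Around Arg1, of 16 arginine and polyamine genes tested 1 rose and 2 fell in KPC hearts (median log2 fold change 0.11). Arg2, the mitochondrial arginase, was not analysed here. Nos2, the inducible nitric oxide synthase that shares arginine with Arg1, had 3.73, 5.10, 4.31 and 5.54 CPM in KPC+GnP hearts, 4.71, 5.51, 4.76 and 10.95 CPM in KPC hearts and 17.2, 12.9, 17.99 and 15.5 CPM in control hearts. Both tumour-bearing groups lay below all controls. Nos2 fell by 1.29 (SE 0.26, edgeR adjusted p = 0.0199) in KPC hearts, a call lost without KPC heart 3 or control heart 1, 3 or 4, and by 1.77 (SE 0.27, edgeR adjusted p = 0.0224) in KPC+GnP hearts against controls, lost without KPC+GnP heart 1 or 2 or those same 3 controls. Nos1 fell by 1.32 (SE 0.36, edgeR adjusted p = 0.0417) and Sat1, which acetylates polyamines for breakdown, rose by 0.97 (SE 0.28, edgeR adjusted p = 0.0494), and leaving out 1 library lost the call in 9 and 11 of 12 fits. Odc1, which makes polyamines from the ornithine that arginase yields, averaged 85.5 ± 25.5 CPM in KPC and 74.9 ± 3.56 CPM in control hearts (0.19, SE 0.18, edgeR adjusted p = 0.485). Of 8 other galectins edgeR called 0 in KPC hearts, as it did not call Lgals3 there, and 2 without KPC heart 4. Lgals1 had a log2 fold change of -0.01 (SE 0.23) and Lgals9 one of 0.22 (SE 0.14).

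Neutrophil markers rose in KPC hearts, 7 of 8 tested, with a median log2 fold change of 5.30. S100a8 averaged 32.6 ± 31.5 CPM in KPC and 0.733 ± 0.561 CPM in control hearts (log2 fold change 5.43, SE 1.01, edgeR adjusted p = 0.0153; without KPC heart 2, 4.90 and 0.0291), and did not pass without control heart 1, 3 or 4. The count of 7 was 0 without any of these 3 control hearts and 5 to 8 without any other heart. Of lymphocyte markers 0 of 7 passed, with a median of 3.07. Of 9 inflammatory macrophage genes 2 rose and 2 fell, among them Socs3, a feedback inhibitor of STAT3 signalling, up by 3.63 (SE 0.63, edgeR adjusted p = 0.0119, lost without control heart 3), and Cxcl9, an interferon-induced chemokine, which fell by 1.87 (SE 0.32, edgeR adjusted p = 0.0116).

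**Figure D4:**
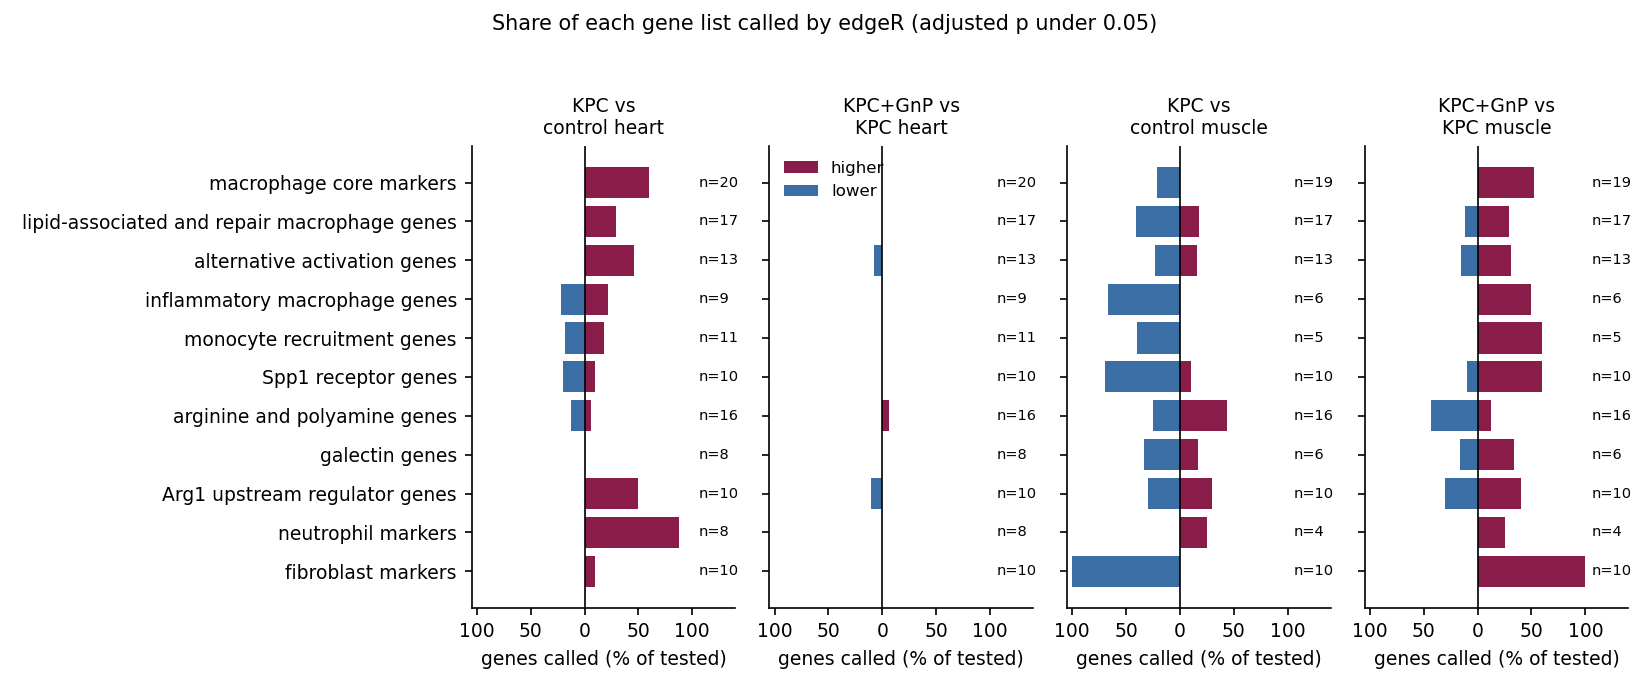
Percentage of each gene list's tested genes that were called higher (right) or lower (left) by edgeR at an adjusted p of 0.05, for KPC+GnP vs KPC and KPC vs control in each tissue. In KPC hearts 12 of 20 macrophage core markers were called higher and 0 lower, beside 4.95% and 4.38% of all genes. In KPC muscles 0 were called higher and 4 of 19 lower, beside 27.5% and 22.1% of all genes, so the share that fell is near that of all genes.

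Between KPC+GnP and KPC hearts 1.55% of all genes were called in either direction, against 9.34% between KPC and control hearts. The call was reached by 0 of 20 macrophage core markers, whose median log2 fold change was -1.05, and by 0 of 17 repair genes, with a median of -0.29. Il4ra averaged 31.6 ± 4.05 CPM in KPC+GnP and 86.8 ± 31.2 CPM in KPC hearts and fell by 1.46 (SE 0.22, edgeR adjusted p = 0.0223), a call lost without KPC heart 2 or 3 or KPC+GnP heart 1 or 2. Without KPC heart 2 edgeR called 1 gene in this comparison, against 214 with it. Against controls, in KPC+GnP hearts Klf4 rose by 1.01 (SE 0.18, edgeR adjusted p = 0.0337), Itga9 fell by 0.83 (SE 0.16, edgeR adjusted p = 0.0337) and Itgb6 fell by 1.49 (SE 0.31, edgeR adjusted p = 0.0418). Each of these calls was lost without any 1 control heart, and without KPC+GnP heart 1, 2 or 3, and that of Itgb6 also without KPC+GnP heart 4. Of macrophage core markers 0 of 20 passed there, with a median log2 fold change of 0.50 beside 2.62 for Lgals3.

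In skeletal muscle the 3 genes were low, and their order across groups was another one. Spp1 had 1.28, 7.60, 4.65 and 3.83 CPM in KPC+GnP muscles, 0.921, 2.18, 0.123 and 1.53 CPM in KPC muscles and 3.20, 0.583, 3.66 and 2.07 CPM in control muscles. Every pair of groups overlapped, although 3 of 4 KPC+GnP muscles lay above every control and KPC muscle. The log2 fold change was -0.99 (SE 0.68) for KPC against control, 1.86 (SE 0.68) for KPC+GnP against KPC and 0.87 (SE 0.65) for KPC+GnP against control, values that share libraries.

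Lgals3 had 3.17, 15.8, 3.44 and 2.07 CPM in KPC+GnP muscles, 4.96, 5.96, 6.76 and 4.92 CPM in KPC muscles and 2.64, 2.43, 6.64 and 1.92 CPM in control muscles. KPC muscles were close together, and 1 KPC+GnP and 1 control muscle stood apart in their groups. The log2 fold change was 0.73 (SE 0.57) for KPC against control, 0.12 (SE 0.56) for KPC+GnP against KPC and 0.85 (SE 0.57) for KPC+GnP against control. Without KPC+GnP muscle 2 the last 2 were -0.97 and -0.24. That muscle held 349 CPM of macrophage core markers, against 89.8 to 189 CPM in the other KPC+GnP muscles, and its Lgals3 equalled 4.51% of them, against 1.5 to 3.53% in the other KPC+GnP muscles and 4.46 to 7.67% in KPC muscles.

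Arg1 was close to the limit of counting in muscle. It had 4, 17, 10 and 0 counts in KPC+GnP muscles, 6, 6, 3 and 5 counts in KPC muscles and 1, 0, 0 and 0 counts in control muscles. KPC muscles did not overlap controls, whereas 1 KPC+GnP muscle had none. The 0 counts allow up to 0.113 to 0.146 CPM in the 3 control muscles and up to 0.135 CPM in the KPC+GnP muscle, at 3 counts per library. In pooled counts the ratio was 18.3 for KPC over control (20 counts against 1, 95% Clopper-Pearson interval 2.93 to 760), 1.74 for KPC+GnP over KPC (31 against 20, 0.958 to 3.21) and 31.8 for KPC+GnP over control (31 against 1, 5.30 to 1300), each interval covering counting error only.

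Between KPC and control muscles 0 of the 2 genes tested passed the threshold, against 27.5% of 12760 genes higher and 22.1% lower, and both overlapped, against 37.2% of genes that did not. Between KPC+GnP and KPC muscles Spp1 passed as higher and Lgals3 did not, against 23.1% of genes higher and 26.7% lower, and both overlapped, against 33.6% that did not. Between KPC+GnP and control muscles edgeR called 0 genes (0%) in either direction, as did DESeq2, with 413 at an unadjusted p under 0.05, and both genes overlapped, against 4.4% of genes that did not. The 2 genes are read no further against these shares. In 12 muscles Spp1 and Arg1 were not alike as they were in hearts, with r = 0.203 and rho 0.197. Genes most like Spp1 there were Zscan22, a zinc-finger gene (0.958), Abca6, an ABC transporter (0.943), B4galt6 (0.915), Reln, an extracellular matrix glycoprotein (0.911), and Stmn1, a microtubule-destabilising protein (0.910). Those most like Lgals3 were Eef1a1, a translation elongation factor (0.887), Phlda1 (0.877), Gpr35 (0.843), Man2a1 (0.830) and Sh2b2 (0.828).

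In muscle the macrophage markers that were called fell in KPC and rose in KPC+GnP mice. Of 19 macrophage core markers 0 rose and 4 fell in KPC against control muscles (median log2 fold change -0.61), where 27.5% of all genes rose and 22.1% fell, so the share that fell is near that of all genes. In KPC+GnP against KPC muscles 10 rose and 0 fell (1.01), where 23.1% of all genes rose and 26.7% fell. Counts of the other lists in muscle stand against the same shares. Csf1r, the receptor on which macrophages depend, had 8.58, 23.4, 14.5 and 14.5 CPM in KPC+GnP muscles, 7.46, 6.27, 6.68 and 6.53 CPM in KPC muscles and 12.7, 11.8, 15.5 and 11.4 CPM in control muscles. KPC muscles lay below both other groups without overlap. Csf1r fell by 0.93 (SE 0.24, edgeR adjusted p = 0.00650) in KPC muscles and rose by 1.18 (SE 0.24, edgeR adjusted p = 0.00181) in KPC+GnP against KPC muscles. Adgre1, or F4/80, fell by 1.48 (SE 0.55, edgeR adjusted p = 0.0380) and rose by 1.54 (SE 0.54, edgeR adjusted p = 0.0327) in the same comparisons. Its first call was lost without control muscle 2 or 3 or KPC muscle 2, 3 or 4, and its second without KPC muscle 2 or 3 or KPC+GnP muscle 2.

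The count of 4 fallen markers was 2 without control muscle 2 or 3, 1 without KPC muscle 2, 2 without KPC muscle 4 and 3 to 6 without any other muscle. The count of 10 risen ones was 4 and 5 without KPC muscle 2 or 3, 16 and 3 without KPC+GnP muscle 1 or 2, and 7 to 12 without any other muscle. Fibroblast markers moved in the same way, 0 rising and 10 of 10 falling in KPC muscles (median log2 fold change -2.35) and 10 rising and 0 falling in KPC+GnP against KPC muscles (2.06), and they summed to 660 to 1190 CPM in KPC+GnP, 225 to 391 CPM in KPC and 835 to 2306 CPM in control muscles. The part of fibroblasts in the macrophage, Lgals3 and Spp1 values was not tested.

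Osteopontin receptors fell in KPC muscles, 7 of 10 with 1 rising (median log2 fold change -0.73), and 6 rose and 1 fell in KPC+GnP against KPC muscles (0.66). Without KPC muscle 1 the single riser and the single faller were 2 each. Itgav had 50.6, 49.4, 49.6 and 36.2 CPM in KPC+GnP muscles, 25.1, 27.4, 28.1 and 26.1 CPM in KPC muscles and 38.9, 38.1, 44.0 and 39.2 CPM in control muscles, with KPC muscles below all others. It fell by 0.59 (SE 0.11, edgeR adjusted p = 0.00163) in KPC muscles and rose by 0.80 (SE 0.11, edgeR adjusted p = 0.000465) in KPC+GnP against KPC muscles. Cd44 fell by 1.18 (SE 0.39, edgeR adjusted p = 0.0246), a call lost without control muscle 3 or KPC muscle 2 or 3, and rose by 1.40 (SE 0.39, edgeR adjusted p = 0.0113). Itgb6, a chain of epithelial integrin, fell by 2.43 (SE 0.55, edgeR adjusted p = 0.00370) in KPC muscles, close to its change in KPC hearts.

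Among arginine and polyamine genes in muscle, 7 of 16 rose and 4 fell in KPC against control (median log2 fold change 0.39), where 49.7% of all genes were called in either direction. In KPC+GnP against KPC muscles 2 rose and 7 fell (-0.30), near the 49.8% of all genes called, with 5 rising without KPC muscle 1. Slc7a2, a cationic amino acid transporter that imports arginine, averaged 554 ± 270 CPM in KPC and 86.0 ± 23.2 CPM in control muscles (log2 fold change 2.69, SE 0.40, edgeR adjusted p = 0.000492). In KPC+GnP muscles Slc7a2 averaged 107 ± 31.9 CPM, and against KPC it fell by 2.37 (SE 0.40, edgeR adjusted p = 0.000765). Oat, which turns ornithine towards glutamate and proline, rose by 0.99 (SE 0.13, edgeR adjusted p = 0.000341) in KPC muscles. Odc1 had 149, 221, 157 and 179 CPM in KPC+GnP muscles, 267, 394, 509 and 458 CPM in KPC muscles and 275, 241, 146 and 193 CPM in control muscles. Odc1 rose by 0.93 in KPC against control (SE 0.22, edgeR adjusted p = 0.00501) and fell by 1.2 in KPC+GnP against KPC (SE 0.23, edgeR adjusted p = 0.00129). Nos2 fell by 1.66 (SE 0.32, edgeR adjusted p = 0.00151) in KPC muscles, to 0.782 ± 0.274 CPM against 2.47 ± 0.425 CPM in controls, and rose by 1.48 (SE 0.32, edgeR adjusted p = 0.00283) in KPC+GnP against KPC muscles.

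Of 6 other galectins tested in muscle 1 rose and 2 fell in KPC against control, and 2 rose and 1 fell in KPC+GnP against KPC. 1 of the 2 that fell, Lgals9 (which fell by 0.59, SE 0.22, edgeR adjusted p = 0.0399), was lost in 7 of 12 fits that left out a muscle. Lgals1, a galectin of muscle and connective tissue, had 118, 130, 126 and 129 CPM in KPC+GnP muscles, 120, 53.5, 84.3 and 70.3 CPM in KPC muscles and 155, 151, 166 and 134 CPM in control muscles. Lgals1 fell by 0.88 in KPC against control (SE 0.19, edgeR adjusted p = 0.00276) and rose by 0.61 in KPC+GnP against KPC (SE 0.19, edgeR adjusted p = 0.0181, lost without KPC muscle 4). Lgals9 rose by 1.02 (SE 0.22, edgeR adjusted p = 0.00288) in KPC+GnP against KPC muscles, and Lgals8, a tandem-repeat galectin, rose by 0.76 (SE 0.19, edgeR adjusted p = 0.00650) in KPC and fell by 0.69 (SE 0.19, edgeR adjusted p = 0.0109) in KPC+GnP against KPC muscles. Of the repair genes 3 rose and 7 of 17 fell in KPC muscles, Ctsl, a lysosomal cathepsin, rising by 1.78 (SE 0.29, edgeR adjusted p = 0.000678) and Igf1, a growth factor also made by muscle itself, falling by 1.18 (SE 0.21, edgeR adjusted p = 0.00103). Of Arg1 regulators 3 rose and 3 fell (1 without KPC muscle 4), Il4ra rising by 1.56 (SE 0.17, edgeR adjusted p = 0.000265) and Cebpb by 1.24 (SE 0.22, edgeR adjusted p = 0.00101). In KPC+GnP against KPC muscles these 2 fell by 0.94 (SE 0.17, edgeR adjusted p = 0.000977) and 1.19 (SE 0.22, edgeR adjusted p = 0.00119).

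The muscle and the heart of the same animal did not carry the same Spp1. For this comparison all 24 libraries were put on a common scale, so that the CPM differ from those within each tissue. In mouse 144, the source of KPC heart 2, Spp1 was 0.154 CPM in muscle and 274.8 CPM in heart, and Arg1 was 0.154 CPM in muscle and 253 CPM in heart. In mouse 148 Spp1 was 1.90 CPM in muscle and 26.3 CPM in heart, whereas in KPC+GnP mouse 163 it was 9.58 CPM in muscle and 0.252 CPM in heart. The muscle of mouse 144 was thus the lowest of the 8 mice with both tissues in Spp1 and its heart the highest. Lgals3 was higher in heart in 5 of 8 mice, with 4.13 CPM in muscle and 47.4 CPM in heart of KPC+GnP mouse 162 at one end and 6.44 CPM in muscle and 4.47 CPM in heart of KPC mouse 141 at the other; with each tissue scaled on its own it was higher in heart in 8 of 8. Spp1 was higher in heart in 3 of 8 mice on the common scale and in 4 of 8 with each tissue scaled on its own. Over all 4 control libraries of each tissue, Spp1 averaged 3.117 ± 1.77 CPM in muscle and 0.426 ± 0.242 CPM in heart, and Lgals3 averaged 4.46 ± 2.77 CPM in muscle and 5.268 ± 3.122 CPM in heart (SD, n = 4 each).

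**Figure D5:**
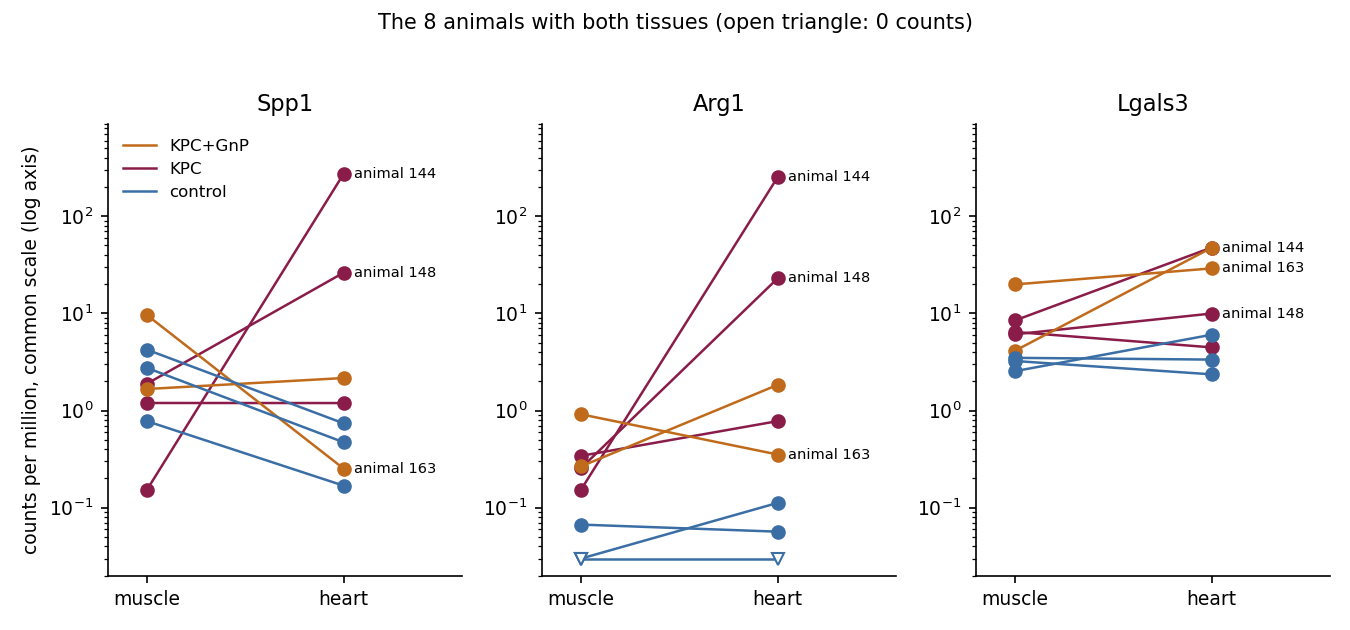
CPM on a scale common to both tissues (log axis) of Spp1, Arg1 and Lgals3 in muscle and heart of the 8 mice that gave both, with 1 line per mouse coloured by group and open triangles for 0 counts. Mouse 144 joins 0.154 CPM of Spp1 in muscle to 274.8 CPM in heart, mouse 163 runs the other way, and 5 of 8 lines of Lgals3 are higher in heart.

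In a fit of both tissues over 14509 genes, the change from control to KPC differed between muscle and heart by a log2 value of -8.55 (SE 1.83, muscle minus heart) for Spp1, -5.92 (SE 10.24) for Arg1, whose value rests on controls near 0 counts, and -1.18 (SE 0.89) for Lgals3. For KPC+GnP against KPC the differences were 6.41 (SE 1.62), 4.96 (SE 2.21) and -0.62 (SE 0.86). Spp1 passed the threshold in both, against 25.8% and 25.7% of all genes, and nothing is read from that. The median of all genes was -0.13 and 0.06 in these 2 differences. Among the 18 genes around them that were named whatever their result, Csf1r differed between tissues by -1.73 (edgeR adjusted p = 0.00461) and Mrc1 by -2.11 (edgeR adjusted p = 0.0106) for KPC against control, that is, lower in KPC muscle relative to its control than in KPC heart. For KPC+GnP against KPC the differences were 1.66 (edgeR adjusted p = 0.00585) and 2.57 (edgeR adjusted p = 0.00362).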

How the data were processed

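Groups come from the labels, and title numbers were read as animals. The submitters' processing notes name STAR 2.5, Subread 1.5.1 with featureCounts, FastQC 0.11.5, edgeR 3.12.1 and mm10. Annotation and strand setting: not given in the sources used here. For each tissue the authors deposited raw counts and log2 FPKM per gene.

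The members and all gene lists were chosen with earlier results of these data known. Counts were fitted per tissue with all 3 groups in edgeR 4.0.16 under R 4.3.3 (filterByExpr with minimum count 10 and total 15, scaling by trimmed mean of M values, quasi-likelihood F test, Benjamini-Hochberg adjustment over all genes, threshold 0.05). Tissues were compared in 1 fit of all 24 libraries. The SE of a log2 fold change is its absolute value divided by the square root of the F statistic. It is thus derived from the test, not estimated separately, and is unreliable near 0 counts. The fit was tested on simulated data. Log2 CPM carry a prior count of 2. A gene's groups are called not overlapping when the lowest library of one exceeds the highest of the other. Intervals are 95% and floors are 3 counts, for counting error only. Depth is given with the results. No 2 libraries of a group were copies (smallest chi-square per gene 14.8).

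Genes were named by a rule: the 3 members, 19 genes around them whatever their result, the 5 most alike per member and tissue (Pearson's r over 12 libraries; 1 of them is not reported here), and up to 3 called genes with the smallest p per list and comparison. Muscle and heart of 1 mouse pair by the animal's number in the titles. Deviations of its 2 libraries from their group means correlated at -0.281 to 0.281, and limma 3.58.1 gave a consensus correlation of 0.032. Alternatives were DESeq2 1.42.0, library totals alone, no filter, only the 2 groups compared, limma on the deposited log2 FPKM, a replicate block for the animal and leaving out each library. Promoters and loci were read from RefSeq and GENCODE tables. 2 of 3 members had a promoter entry.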

Additional observations from a re-analysis of the deposited data

Results flagged for a closer look

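Dixon's rule was applied to 36 groups of 4 libraries (3 genes and 3 marker lists in 6 groups each). In 9 of them 1 library lay farther from the others than the critical value for 4 samples allows (gap over range, given in brackets). Chance gives about 1 in 20 for normally distributed values, which CPM near 0 counts are not. Genes and lists were also chosen with results known, so the gaps are descriptions and the 9 is not read against that rate. KPC heart 2 was high in Spp1 (0.908), Arg1 (0.912) and lymphocyte markers (0.969), and KPC+GnP heart 3 was high in Arg1 (0.879). KPC+GnP muscle 2 was high in Lgals3 (0.900). Control muscle 3 was high in Lgals3 (0.846) and control muscle 1 in Arg1, where its 1 count stands against 0 in the others (1.000). Neutrophil markers were high in control heart 2 (0.850) and low in control muscle 2 (0.883).

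Between tissues, 25.8% of all 14509 genes passed edgeR's threshold for KPC against control and 25.7% for KPC+GnP against KPC. Of 18 genes tested for this difference, chosen with results known, 10 passed in at least 1 comparison, and nothing is read from that count. In values of muscle minus heart for KPC against control, the genes that passed were Adgre1 (-2.73), Ccl2 (-5.01), Cd44 (-3.01), Csf1r (-1.73), Itgb3 (-3.17), Lgals1 (-0.94), Lgals9 (-0.88) and Mrc1 (-2.11). For KPC+GnP against KPC they were Adgre1 (2.75), Ccl2 (6.64), Cd44 (2.33), Csf1r (1.66), Lgals9 (1.31), Mrc1 (2.57), Nos2 (2.00) and Odc1 (-0.94). Settings for these differences were chosen after seeing the data. Without KPC heart 2, edgeR's adjusted p was 0.109 for Ccl2 (-3.67), 0.0913 for Lgals1 (-0.71) and 0.0632 for Adgre1 (-1.72) in KPC against control, and 0.0568 for Adgre1 (1.74) and 0.128 for Cd44 (1.02) in KPC+GnP against KPC. Without muscle control 3 it was 0.0516 for Lgals9 (-0.73) and 0.0520 for Adgre1 (-2.34). Without KPC+GnP muscle 2 it was 0.0719 for Ccl2 (3.93), 0.0649 for Adgre1 (1.97) and 0.0787 for Cd44 (1.82). Without KPC muscle 3, Odc1 had -0.82 (0.0576). Csf1r and Mrc1 in both comparisons, and Nos2 and Lgals9 in KPC+GnP against KPC, passed under every setting run.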

How the results depend on the processing

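Directions of Spp1, Arg1 and Lgals3 in whole-group fits changed only for Lgals3 in muscle: limma on log2 FPKM gave -0.32 for KPC+GnP against KPC, against 0.12 with edgeR, and leaving out KPC+GnP muscle 2 turned it too, with ranges over single left-out libraries of -0.97 to 0.41 (KPC+GnP against KPC) and -0.24 to 1.40 (against control). Left-out ranges in heart were 4.78 to 7.91 (Spp1) and 6.71 to 10.27 (Arg1) for KPC against control, and 1.38 to 3.35 and 3.36 to 6.08 for KPC+GnP against control. Limma on log2 FPKM gave 5.08 (Spp1) and 6.17 (Arg1) for KPC and 3.16 (Arg1) for KPC+GnP against control hearts. For muscle minus heart the ranges were -9.02 to -5.82 (Spp1), -6.62 to -3.05 (Arg1) and -1.61 to -0.20 (Lgals3) for KPC against control, and 3.69 to 8.01, 2.09 to 7.01 and -1.68 to -0.30 for KPC+GnP against KPC.

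Genes called in KPC against control hearts were 1293, and 2491 with DESeq2, 229 with the 2 groups alone and 104 to 3554 with 1 library left out. For KPC+GnP against KPC hearts they were 214, and 1163, 3, 88 with limma and 0 to 1192. For KPC+GnP against control hearts they were 170, and 1056, 918, 86, 374 with library totals and 1 to 612. For muscle minus heart they were 3747 (2677 to 5804) and 3725 (2867 to 5694). The cause was not tested. Arg1 in KPC+GnP against control hearts could not be fitted with 2 groups alone. With the replicate block for the animal 3188 and 3205 genes were called, Spp1 had -6.72 and 5.66, Arg1 -4.53 and 3.09 and Lgals3 -0.69 and -1.47. The block lost the calls of Ccl2 (-4.42, adjusted p 0.226), Itgb3 (-3.09, 0.0819), Adgre1 (-2.22, 0.102) and Cd44 (-2.32, 0.0554) for KPC against control and of Ccl2 (4.35, 0.225), Adgre1 (2.08, 0.133) and Cd44 (1.58, 0.176) for KPC+GnP against KPC. Of named genes called in KPC against control muscles, 39 of 49 passed in all 12 left-out fits.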

Other observations

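Alternative activation genes in muscle, and monocyte recruitment genes in either tissue, were not described above. In KPC against control hearts 2 of 11 monocyte recruitment genes rose and 2 fell, where 4.95% of all genes rose and 4.38% fell. Ccl8 rose by 3.07 (edgeR adjusted p = 0.0405) and Cx3cr1 fell by 1.76 (edgeR adjusted p = 0.0303). Leaving out 1 library lost these calls in 10 and 5 of 12 fits. Of 13 alternative activation genes 2 rose and 3 fell in KPC against control muscles, and 4 rose and 2 fell in KPC+GnP against KPC muscles (2 rising without KPC+GnP muscle 2). Of all genes 27.5% rose and 22.1% fell in the first of these comparisons, and 23.1% rose and 26.7% fell in the second. Nothing is read from the counts of this list. Tgm2, a transglutaminase, averaged 239 ± 85.8 CPM in KPC and 88 ± 2.22 CPM in control muscles, up by 1.44 (SE 0.22, edgeR adjusted p = 0.000582). Mgl2, a macrophage galactose lectin, averaged 1.84 ± 0.824 CPM in KPC and 3.93 ± 0.362 CPM in control muscles, and fell by 1.1 (SE 0.35, edgeR adjusted p = 0.02). In hearts Mgl2 went the other way in KPC against control, up by 1.23 (SE 0.26, edgeR adjusted p = 0.0232, lost without control heart 1, 3 or 4), and the difference between tissues was not tested. Of 5 monocyte recruitment genes tested in muscle 2 fell in KPC against control and 3 rose in KPC+GnP against KPC muscles. These counts stand beside the same muscle shares of all genes and are too small to be read.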
